A study of Mus musculus with 6 samples.

Results

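The 10 genes described here, Cd24a, Cd44, Prom1, Procr, Kit, Kitl, Nes, Ly6a, Thy1 and Cd55, are used as markers of tumor-initiating and progenitor cells. Every non-control probe whose RefSeq accession belongs to one of them was taken, which gave 14 probes, all kept for testing, among 20648 genes that could be named on the array. The samples were spheres, free-floating clusters of cells, from mammary tumors of FRS2beta knock-out mice (knockout, 3 arrays) and of FRS2beta hetero mice (hetero, 3 arrays). Both genotypes were cultured in DMEM/F12 with B27, EGF and bFGF at 20 ng/mL each and heparin at 2 mg/mL. FRS2beta, encoded by Frs3, is an adaptor that docks on receptor tyrosine kinases. The strain, the age of the mice, what started the tumors and whether replicates were separate tumors are not given in the sources used here, so each p-value reflects no more than the scatter among these arrays, part or all of which may be technical.

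Cells able to start a tumor or to rebuild mammary epithelium are commonly sorted by combinations of surface proteins, since no single protein defines them. Human breast cancer work often uses high CD44 with low CD24, while mouse mammary work combines CD24 with integrins, Sca-1 (Ly6a), KIT, PROCR or THY1 to part luminal, basal and stromal cells. CD24, Sca-1, THY1 and CD55 are held in the membrane by a glycosylphosphatidylinositol anchor, CD44, prominin-1, PROCR and KIT span it, KIT ligand is made as a membrane protein that can be shed, and nestin, the product of Nes, is an intermediate filament inside the cell. Sphere culture is a common assay in which cells with progenitor properties are grown without attachment.

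Signals are given as log2 of the processed signal minus the 75th percentile of the array, so 0 is a probe at that percentile, and differences are knockout minus hetero on this scale. The 75th percentile was 465 to 487 intensity units on knockout arrays and 404 to 416 on hetero arrays. The share of probes well above background was 60.5% to 69.6% on knockout arrays and 60.4% to 61.3% on hetero arrays. Frs3 itself was well above background on 0 of 3 knockout arrays and 1 of 3 hetero arrays (scaled log2 signal -7.73 ± 0.32 and -5.99 ± 1.33, SD, n = 3 each), so it does not check the genotype labels. Scaling to spike-in spots, RNAs of known amount added to each sample, would add 0.42 to every log2 difference, so a change is stated relative to the rest of each array's genes.

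The panel did not move as one. Cd24a, Thy1, Prom1 and Nes were 3.83-fold to 10.9-fold higher in knockout spheres and Cd44 was 1.16-fold higher. Ly6a was 3.98-fold lower, Cd55 1.91-fold, Kit 1.40-fold and Procr 1.20-fold, and Kitl did not pass. By limma with Benjamini-Hochberg adjustment over all genes, 5 of 10 rose, 4 fell and 1 did not pass an adjusted p of 0.05, against 27.8% of 15838 tested genes that rose and 32.6% that fell, together 60.4%. A change of at least 2-fold was reached by 4 that rose and 1 that fell, where 6.59% of all genes rose and 3.52% fell by that much. The median log2 difference was 0.18 over the 10 genes and -0.03 over all genes. The genotypes did not overlap in 9 of the 10 genes, and in 68.9% of all genes. Because so many genes passed, a call by itself says little about these markers, and their sizes of change are described one by one.

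**Figure D1:**
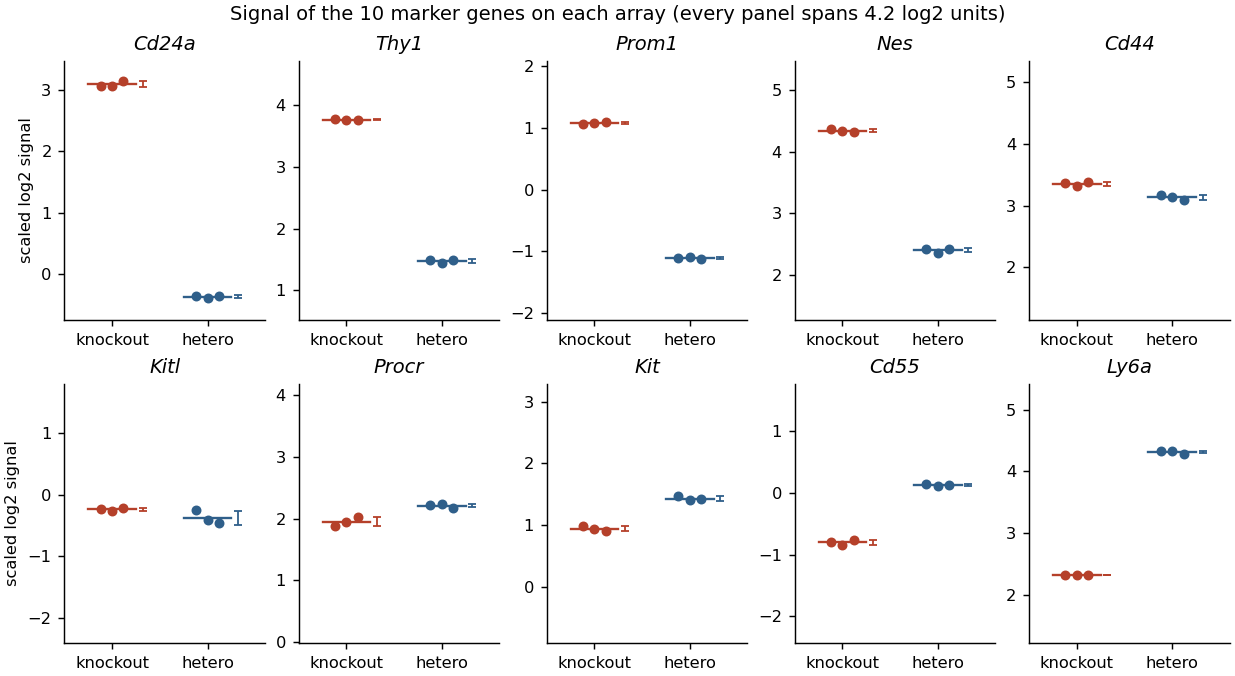
Scaled log2 signal of each of the 10 genes on the 3 knockout arrays (left in each panel) and the 3 hetero arrays (right), ordered by their change. Points are arrays, horizontal lines are group means and the bars beside them are ± SD (n = 3). Kitl is the gene whose groups overlap.

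Cd24a (NM_009846) had the largest change of the panel. It codes for a small, heavily glycosylated protein that is abundant on mammary epithelial cells and low on stroma. Its scaled log2 signal was 3.05, 3.06 and 3.14 on the knockout arrays, against -0.35, -0.38 and -0.34 on the hetero arrays. The groups were far apart, with replicates within 0.1 of each other. The difference was 3.44 ± 0.03 (SE, 10.9-fold, limma adjusted p = 1.80e-07), and 128 of the 15838 genes had a larger one.

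Cd44, the hyaluronan receptor, moved the same way by far less. Its brightest probe read 3.37, 3.32 and 3.38 on the knockout arrays, against 3.18, 3.14 and 3.099 on the hetero arrays. The groups were close but did not overlap, and the difference was 0.22 ± 0.03 (SE, limma adjusted p = 0.00225). Within each array, the change of Cd24a exceeded that of Cd44 by 3.23 log2 units, or 9.36-fold, by the brightest probe of each gene. No scaling between arrays by a constant can alter this difference, but it was 2.58 with the Cd44 probes averaged. By the brightest probes, its 3 knockout arrays lay at least 3.13 above its 3 hetero arrays (two-sided exact permutation p = 0.10, the smallest that 3 against 3 can give).

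Cd44 was measured by 4 probes to accession NM_009851, and they rose by different amounts. The brightest, A_55_P2064043, gave 0.22 ± 0.04 in the fit across all probes. A_55_P2166501 read 1.74, 1.73 and 1.78 on the knockout arrays, against 1.22, 1.18 and 1.14 on the hetero arrays, a difference of 0.57 ± 0.03. A_55_P2166488 read -1.64, -1.71 and -1.61 on the knockout arrays, against -2.78, -2.94 and -2.91 on the hetero arrays, a difference of 1.22 ± 0.06. A_55_P2166486 read -2.81, -2.84 and -2.90 on the knockout arrays, against -4.67, -3.90 and -4.32 on the hetero arrays, a difference of 1.45 ± 0.20. All 4 passed (limma adjusted p up to 0.00545 across probes) with no overlap between genotypes. Within arrays the changes of the other 3 exceeded that of the brightest by 0.36, 1.01 and 1.23. With normexp, a background correction that shrinks dim signals, the 4 changes were 0.25, 0.57, 0.63 and 0.36 in the same order, so the size of the last 2 depends on the background correction. With median scaling the brightest probe did not pass in the fit across probes. Which transcripts or exons each probe reads was not analysed here, and when the 4 probes were averaged Cd44 rose by 0.86.

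Prom1 (NM_001163577 and NM_008935) codes for prominin-1 (CD133), a protein of membrane protrusions that marks subsets of luminal mammary cells and several kinds of stem cell. Its brighter probe, A_55_P2059931, read 1.07, 1.08 and 1.10 on the knockout arrays, against -1.12, -1.09 and -1.13 on the hetero arrays. The difference was 2.19 ± 0.02 (SE, 4.57-fold, limma adjusted p = 2.55e-07). The other probe, A_52_P402786, read -2.68, -3.02 and -3.09 on the knockout arrays, against -5.69, -5.48 and -5.48 on the hetero arrays, where it was well above background on 0 of 3 arrays. Its rise was 5.70-fold when each hetero array was given the higher of its own signal and the lowest signal counted as above background. That floor is the lowest such signal on the array, so the value is not a lower bound. The probe passed in the fit across all probes (limma adjusted p = 7.74e-05). With normexp this probe rose by 0.64 on the log2 scale and the brighter one by 1.93, so the size for the dim probe depends on the background correction. Both probes had the same direction. Across all probes tested, 9 of the 14 probes of the panel rose and 4 fell, against 19.3% and 27.6% of 35427 probes.

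**Figure D2:**
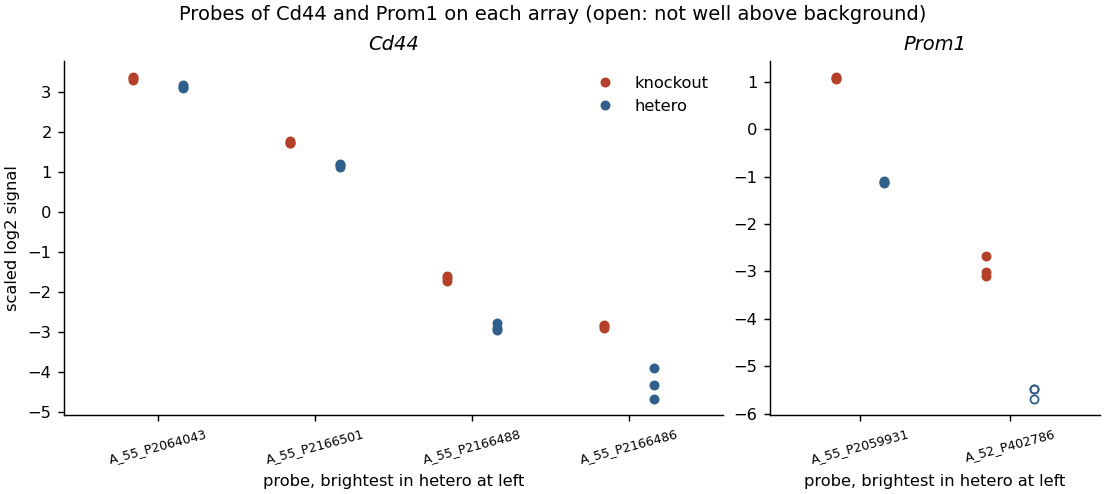
Scaled log2 signal of the 4 Cd44 probes (left) and the 2 Prom1 probes (right) on each array, knockout left of hetero for each probe. Open circles mark the Prom1 probe that had signal close to background in hetero spheres, and the gap between genotypes differs among the Cd44 probes, from 0.22 to 1.45.

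Thy1 and Nes rose to a similar extent as Prom1. Thy1 (CD90, NM_009382) is a small immunoglobulin-like protein of T cells, neurons, fibroblasts and part of the basal mammary epithelium. It read 3.77, 3.77 and 3.76 on the knockout arrays, against 1.48, 1.44 and 1.49 on the hetero arrays, a difference of 2.29 ± 0.02 (SE, 4.90-fold, limma adjusted p = 2.55e-07). Nestin is best known from neural progenitors and is also found in myoepithelial and vascular cells. Nes (NM_016701) read 4.37, 4.34 and 4.32 on the knockout arrays, against 2.42, 2.36 and 2.43 on the hetero arrays, and differed by 1.94 ± 0.03 (SE, 3.83-fold, limma adjusted p = 5.92e-07). For both genes the lowest knockout array lay well above the highest hetero array.

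Ly6a (NM_010738), or Sca-1, a surface protein of haematopoietic stem cells, endothelium, fibroblasts and part of the luminal cells, had the largest fall. It read 2.32, 2.31 and 2.32 on the knockout arrays, against 4.32, 4.32 and 4.29 on the hetero arrays. The knockout arrays differed from each other by less than 0.01, and the difference between genotypes was -1.99 ± 0.02 (SE, 3.98-fold lower, limma adjusted p = 2.72e-07). Ly6a ranked 138 from the bottom among all genes. Ly6 genes are close relatives in sequence, and whether its probe also binds transcripts of its neighbours was not tested.

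Cd55 (NM_010016), or decay-accelerating factor, protects cells from complement by breaking up the convertases on their surface. It read -0.79, -0.84 and -0.76 on the knockout arrays, against 0.15, 0.12 and 0.13 on the hetero arrays. The difference was -0.93 ± 0.03 (SE, 1.91-fold lower, limma adjusted p = 5.23e-06), and it was -0.51 with spike-in scaling.

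Procr (NM_011171), the gene of the endothelial protein C receptor, which aids protein C activation and marks a basal stem cell population in the mouse mammary gland, differed little. It read 1.88, 1.95 and 2.02 on the knockout arrays, against 2.22, 2.24 and 2.18 on the hetero arrays. The groups came within 0.2 of each other without overlap, and the difference of -0.26 ± 0.04 (SE, limma adjusted p = 0.00376) turned to 0.16 with spike-in scaling. With median scaling it did not pass (-0.24, adjusted p = 0.0549), so the direction of Procr depends on the scaling.

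Kit fell by a modest amount and the gene of its ligand, Kitl, did not pass. KIT is the receptor tyrosine kinase for stem cell factor, found on luminal progenitors and mast cells among others. Kit (NM_001122733) read 0.98, 0.94 and 0.90 on the knockout arrays, against 1.47, 1.40 and 1.42 on the hetero arrays, a difference of -0.49 ± 0.03 (SE, 1.40-fold lower, limma adjusted p = 0.000117). With spike-in scaling it was -0.068 and did not pass (adjusted p = 0.135). Kitl (NM_013598), which codes for stem cell factor, read -0.23, -0.26 and -0.22 on the knockout arrays, against -0.24, -0.41 and -0.47 on the hetero arrays. Hetero replicate 1 lay among the knockout arrays, and the difference of 0.13 ± 0.06 (SE) did not pass (95% interval -0.02 to 0.29, adjusted p = 0.112). Without that array it was 0.20 and passed (adjusted p = 0.00645), as it did with normexp (0.15, adjusted p = 0.0305) and with spike-in scaling (0.55, adjusted p = 0.000553). Within arrays, the change of Kit minus that of Kitl was -0.62 log2 units (two-sided exact permutation p = 0.10, the smallest possible here), with every knockout array below every hetero array.

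**Figure D3:**
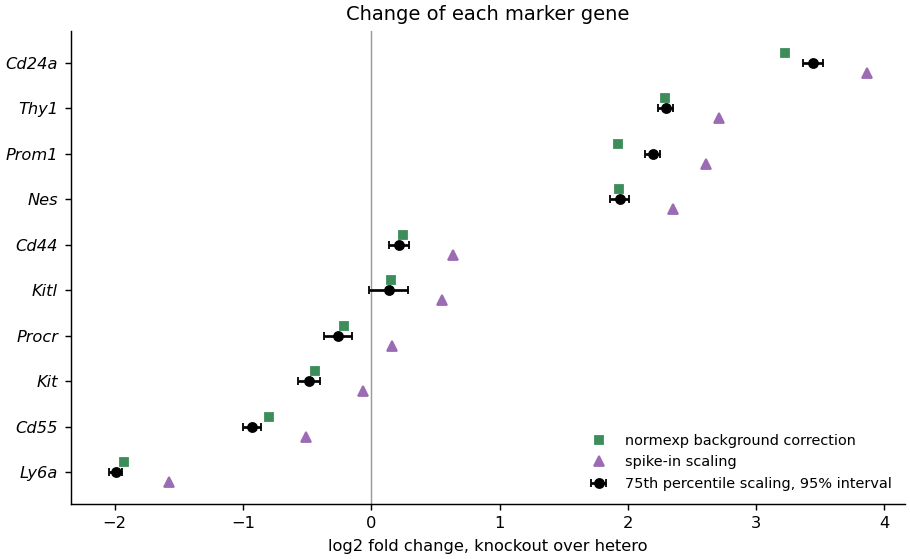
Log2 fold change, knockout over hetero, of each gene by its brightest probe. Black points with bars are estimates with 95% intervals under 75th percentile scaling (n = 3 arrays per genotype), squares use normexp background correction and triangles spike-in scaling, which moves every gene right by 0.42 and takes Procr across 0.

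The 250 bases before the annotated transcript start are shown for the genes of the panel with the largest rises and the largest fall among the 7 that have a promoter entry, Prom1, Nes and Cd55, so that the start regions of genes that moved in opposite directions can be read side by side. Prom1 has 2 annotated starts, and which of them gives the transcripts that each probe reads was not analysed here. Sequences are from RefSeq on build GRCm38.p6, written 5′ to 3′ on the gene's strand and ending at the base before the start. Capitals mark a match on either strand, with no mismatch, to the GC box GGGCGG or to the CCAAT box. The TATA box with letters TATAAA and the E-box with letters CACGTG were searched too and had 0 matches here, where 12.4% and 6.02% of all windows hold them.
Prom1, chr5:44101737-44101986, minus strand: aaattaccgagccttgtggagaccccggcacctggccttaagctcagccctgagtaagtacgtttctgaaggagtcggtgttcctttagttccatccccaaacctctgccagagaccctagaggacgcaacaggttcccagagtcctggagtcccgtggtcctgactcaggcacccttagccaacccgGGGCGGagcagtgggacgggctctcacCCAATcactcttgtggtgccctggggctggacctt
Prom1, chr5:44094769-44095018, minus strand: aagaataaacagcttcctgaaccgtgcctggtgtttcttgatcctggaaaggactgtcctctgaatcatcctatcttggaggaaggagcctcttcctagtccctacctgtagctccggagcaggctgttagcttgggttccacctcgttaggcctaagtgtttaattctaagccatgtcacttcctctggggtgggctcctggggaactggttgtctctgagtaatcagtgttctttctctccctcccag
Nes, chr3:87970843-87971092, plus strand: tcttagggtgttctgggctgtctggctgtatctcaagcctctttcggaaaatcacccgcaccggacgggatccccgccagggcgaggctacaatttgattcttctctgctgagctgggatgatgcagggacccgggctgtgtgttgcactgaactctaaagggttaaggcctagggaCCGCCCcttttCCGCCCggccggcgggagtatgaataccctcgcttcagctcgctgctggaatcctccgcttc
Cd55, chr1:130462745-130462994, minus strand: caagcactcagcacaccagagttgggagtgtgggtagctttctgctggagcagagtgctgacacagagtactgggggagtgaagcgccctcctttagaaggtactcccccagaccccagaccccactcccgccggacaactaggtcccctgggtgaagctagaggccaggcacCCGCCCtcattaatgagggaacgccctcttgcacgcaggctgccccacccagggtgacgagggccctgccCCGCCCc
The GC box was found 2 times in Nes, 2 times in Cd55 and 1 time in the upstream Prom1 window, and it is present in 32.7% of all 32851 promoter windows of this length. The CCAAT box was found 1 time, in the upstream Prom1 window, and is present in 33.8% of all windows. The other Prom1 window held 0 matches to these motifs and 3 CG pairs, against 9 in the upstream window, 15 in Nes and 8 in Cd55, with a median of 6 over all windows. These matches describe the letters of the windows only, and Cd24a, Ly6a and Thy1 were not searched.

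Of 28 other genes tested that are used as mammary stem, progenitor or tumor-initiating markers, 21 rose and 6 fell, where 27.8% of all genes rose and 32.6% fell, with a median log2 difference of 0.43 beside -0.03 over all genes. The 4 with the smallest p all rose: Tspan8, a tetraspanin of luminal progenitors, by 3.46 ± 0.02 (SE), the transcription factor Sox10 by 3.05 ± 0.03, the epithelial adhesion gene Epcam by 3.74 ± 0.04, and Aldh1a3, an aldehyde dehydrogenase behind the ALDEFLUOR assay, by 4.19 ± 0.07 (3.32 with normexp). The list was drawn up with earlier results of these data known, and several of its genes are markers of luminal epithelium. Sox2 and Pou5f1 were not tested, because their probes were well above background on fewer than 3 arrays. With spike-in scaling 25 rose and 1 fell.

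Genes that act with the members moved in both directions, where 27.8% of all genes rose and 32.6% fell. In KIT signalling, 4 of 14 rose and 6 fell (median 0.03, 11 and 1 with spike-in scaling). The transcription factors Stat5a and Stat5b fell by 0.79 ± 0.05 and 0.44 ± 0.04 (SE), the adaptor gene Shc1 fell by 0.27 ± 0.03, and Pik3r1, the regulatory subunit of PI3 kinase, rose by 1.43 ± 0.15. With spike-in scaling Shc1 turned to 0.15 and Stat5b did not pass (-0.03, adjusted p = 0.575). Among genes of hyaluronan and of the CD44 partners, 8 of 15 rose and 2 fell (median 0.12, 12 and 2 with spike-in scaling). The hyaluronan-binding gene Tnfaip6 fell by 1.77 ± 0.05 and the proteoglycan Vcan by 0.55 ± 0.02 (-0.13 with spike-in scaling). Ezr, which ties CD44 to actin, rose by 0.76 ± 0.04, and Esrp1, an epithelial splicing factor known to act on Cd44 exons, rose by 1.45 ± 0.07 (2.08 with its probes averaged).

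In the Ly6 and uPAR family, 6 of 16 tested genes rose and 5 fell (median -0.07, 10 and 2 with spike-in scaling). Over all genes, 27.8% rose and 32.6% fell. Ly6c1, a close relative of Ly6a found on monocytes and endothelium, fell by 1.94 ± 0.03 (SE), close to the fall of Ly6a. Ly6h fell by 3.76 ± 0.05 (-3.03 with normexp), while Ly6d and Lypd3, which are made by stratified and other epithelia, rose by 3.85 ± 0.03 and 3.55 ± 0.04. Of 9 complement regulators, 6 fell and 2 rose (4 and 3 with spike-in scaling). Beside Cd55, its duplicate Cd55b fell by 0.72 ± 0.07, a gene named here after its value was seen. Spike-in scaling would add 0.42 to that difference and so make the fall smaller. Serping1, the gene of the C1 inhibitor, fell by 0.73 ± 0.03 (-0.31 with spike-in scaling). Vitronectin, Vtn, fell by 4.18 ± 0.02 (-3.29 with normexp) and clusterin, Clu, rose by 3.30 ± 0.03.

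Beside Procr, all 16 genes of the protein C pathway and of thrombin receptors passed, against 60.4% of all genes. Of the 16, 9 were higher and 7 lower (median 0.37, 10 and 5 with spike-in scaling). Over all genes, 27.8% were higher and 32.6% lower. The protease inhibitor gene Tfpi2 and the thrombin receptor gene F2rl3 both rose by 1.32 (SE 0.02 and 0.04). The sphingosine phosphate receptor gene S1pr1 fell by 1.45 ± 0.03 and Gas6, a ligand of TAM receptors, by 0.72 ± 0.02 (-0.30 with spike-in scaling). Of 9 tested partners of Prom1 and Nes, 3 rose and 0 fell (6 and 0 with spike-in scaling, and 2 fell with normexp). Those that rose were the muscle intermediate filament gene Des by 0.73 ± 0.02, the neurofilament gene Nefm by 0.60 ± 0.06 (0.09 and no longer past the threshold with normexp, adjusted p = 0.0553) and Prom2, the epithelial relative of Prom1, by 3.33 ± 0.35 with 1 of 3 hetero arrays above background (1.02 with normexp). Vim, whose product pairs with nestin in filaments, differed by 0.03 ± 0.03 (adjusted p = 0.409).

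Markers of the cell types that carry these proteins moved as well, and in bulk RNA fewer cells of a type and less RNA per cell cannot be told apart. For all the cell type lists, the shares to set beside the counts are 27.8% of all genes that rose and 32.6% that fell. Luminal epithelial markers, 12 of 12, rose by a median of 3.49, and their summed signal, in multiples of the array's 75th percentile, was 134 to 137 on knockout arrays and 12.4 to 12.7 on hetero arrays. The change of Cd24a, 3.44, lay among theirs, with Krt18 at 3.44 and Epcam at 3.74. Basal markers rose in 6 of 8 tested and fell in 1 (median 1.85, sums 94.5 to 94.9 and 21.4 to 21.6), and Myh11 was not tested. Macrophage markers fell in 10 of 10 tested (median -1.46, sums 8.18 to 8.25 and 20.7 to 21.2), and Cd68 and Cd163 were not tested. Fibroblast markers fell in 7 of 10 and rose in 2 (median -0.53, sums 1835 to 1902 and 2347 to 2564). With spike-in scaling 8 macrophage markers fell and 0 rose, and 5 fibroblast markers fell and 3 rose. The part of these cell types in the changes of Cd24a, Prom1, Nes, Ly6a and Cd55 was not tested.

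Thy1 and Ly6a are both found on fibroblasts and T cells but moved in opposite directions. Of 9 T cell markers, Cd3d, Cd3g, Cd2 and Cd8a were not tested, because their probes were well above background on fewer than 3 arrays. Of the other 5, 0 rose and 2 fell (median -0.17, sums 7.92 to 8.91 and 9.80 to 11.3). Endothelial markers rose in 2 of 9 and fell in 4 (median -0.16, sums 18.6 to 19.9 and 24.4 to 25.1). With spike-in scaling the calls change to 2 T cell and 6 endothelial markers higher and 0 lower. The markers then called higher need not be those that fell. Pericyte markers rose in 3 of 5 tested (median 0.12, sums 62.1 to 64.2 and 45.3 to 47.1), and 4 rose and 0 fell with spike-in scaling. Cspg4 and Notch3 rose by 1.74 ± 0.03 and 1.69 ± 0.03 (SE) and Pdgfrb by 0.12 ± 0.03. Abcc9 (-0.12) and Rgs5 (-0.02) did not pass, and Kcnj8 was not tested. Mast cells are rich in KIT. Of their 8 markers, Fcer1a, Ms4a2 and Mrgprb1 were not tested for lack of signal, 1 rose and 4 fell (1 and 3 with spike-in scaling). Mcpt4, a mast cell protease gene, rose by 0.98 ± 0.03 (SE), and of the 4 that fell, Cma1 was well above background on 0 of 3 knockout arrays and Cpa3 on 1. The summed signal was 1.42 to 1.52 on knockout arrays and 1.78 to 1.87 on hetero arrays. Schwann and neural markers, relevant to Nes and Thy1, rose in 2 of 6 tested and fell in 2 (median -0.21, sums 6.63 to 6.89 and 6.42 to 6.57). With spike-in scaling 3 rose and 1 fell, and Cdh19 was not tested. The part of these cells in the changes of Thy1, Kit and Nes was not tested.

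**Figure D4:**
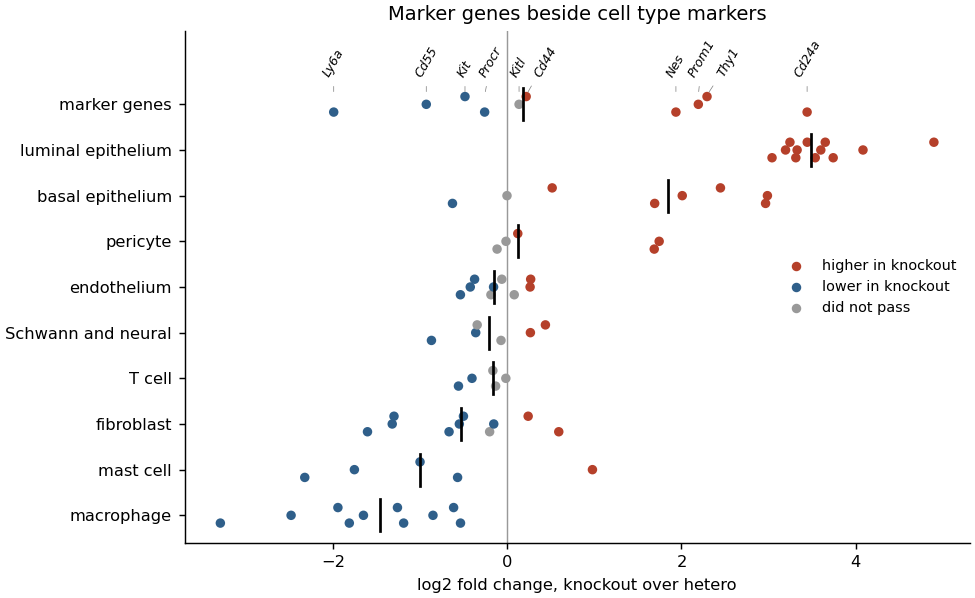
Log2 fold change, knockout over hetero, of the 10 marker genes (top row, named) and of 9 lists of cell type markers, with 1 point per tested gene and a vertical line at each median. Red points rose, blue points fell and grey points did not pass an adjusted p of 0.05, and the luminal list lies around its median of 3.49, beside Cd24a at 3.44. Its rightmost point, Foxa1, was well above background on 1 of 3 hetero arrays.

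The genes nearest to each marker were found by Euclidean distance between signals centred on each gene's mean over the 6 arrays. Because arrays of a genotype were alike, the distance mainly ranks genes by size of change. Nearest to Cd24a were Krt18 (distance 0.045), Chil1 and Tspan8, and nearest to Thy1 were Osbpl3, Wnt5b and Sfn. Epha2, Dbndd2 and Sytl1 lay nearest to Prom1, with Epha2 at 0.049, and Chadl, Folr1 and Tfap2a nearest to Nes. When probes were averaged, Dbndd2 rose by 1.53 in place of 2.18, and Chadl and Folr1 by 0.80 and 1.04 in place of 1.94 each. Ly6a lay nearest to Fgl2 (0.046), Clec4d and Lyz2, which fell by 2.01, 1.98 and 1.95, the last a gene of the macrophage list. Cd55 lay nearest to Galnt6, Socs3 and Ebf3, which fell by 0.91 to 0.93, and Kit to Dock10, Mmp3 and Abcb4, which fell by 0.47 to 0.50 and did not pass with spike-in scaling. Of the small changes, Procr lay nearest to Snx21, Timm21 and Zbtb4, which were lower and, with spike-in scaling, higher. Cd44 lay nearest to Tia1, Pisd and Tmem128, and Kitl to C1rl, Azi2 and Atp6v0e. None of the last 3 passed the threshold, but all 3 did with spike-in scaling and without hetero replicate 1. Atp6v0e also passed with quantile scaling and with normexp.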

How the data were processed

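Each of the 3 knockout and 3 hetero RNA samples was Cy3-labelled and run on 1 single-colour Agilent array. The files name Agilent Feature Extraction 10.7.3.1 as the image software, also given in the submitters' processing notes. Per the file headers, the deposited intensity used here, the processed signal, is linear and background-subtracted. The authors' series table holds the same intensities divided by 1 constant per array (402 to 484, equal within 1% for 100% of 46182 probes), with column medians of 0.159 to 0.169.

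Control spots and outlier spots were left out, none was saturated, and spots of a probe were averaged as log2 values. Of 55681 probes, 27220 got a symbol by matching RefSeq accessions to a table on GRCm38.p6. The array header names mm9, so probes were given no coordinates. Arrays were scaled to their 75th percentile. A probe had to be well above background on 3 or more of the 6 arrays, and the brightest such probe stood for its gene, which left 15838 genes. The comparison used limma 3.58.1 (lmFit, eBayes) under R 4.3.3, over all genes and separately over all probes, with Benjamini-Hochberg adjustment and a threshold of 0.05. The code was tested on simulated data.

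The members and lists were chosen with earlier results of these data known. Genes named are the members, up to 4 called genes with the smallest p in each list of related genes, the 3 nearest genes of each member, Frs3, and cell type markers. Cd55b and Vim are exceptions chosen after their values were seen, and 1 gene that the rule names is not reported here. The alternatives were other scalings, normexp (offset 50, on the median spot signal, since no mean signal column was in the files used here), other filters, probe averaging, the series table, blocks and leaving out each array. With 3 arrays per group, their number limits the precision. All lay on 1 slide scanned in 1 run, with replicates 1 and 2 of both genotypes in slide row 1 and replicate 3 of both in row 2. Each slide column held 1 genotype, so column and genotype cannot be told apart.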

Additional observations from a re-analysis of the deposited data

How the results depend on the processing

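Over 18 refits (slide row 1 alone among them) and the values of slide row 2 alone, Cd24a, Cd44, Prom1, Nes, Thy1, Ly6a and Cd55 kept their direction, and they passed the threshold in each of the refits (adjusted p at most 0.0346, for Cd44 with median scaling). Spike-in scaling, which adds 0.42 to every difference, gave 0.16 for Procr (also by its probe in the fit across probes), -0.068 for Kit and 0.55 for Kitl, left 2 members called lower, and called 11490 genes higher and 1260 lower, against 4403 and 5160. It also turned Shc1 (0.15), Snx21 (0.17), Timm21 (0.16) and Zbtb4 (0.17). With median scaling Procr was -0.24 and did not pass. With normexp Kitl was 0.15 under 75th percentile scaling and 0.16 under quantile scaling, and passed. Leaving out 1 array at a time, Kitl ran from 0.089 to 0.20, and without hetero replicate 1 it passed. In slide row 2 alone, 1 array per genotype and a comparison added after seeing the data, Procr was -0.16 and Kitl 0.24, with no test.

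Same-numbered arrays did not deviate together (correlations -0.12 to -0.01 over genes, and 0 of 3 arrays correlated best with their own number), so the numbers were not taken as pairs. With the replicate number as a block, 5 members were higher and 4 lower, and 3932 and 4579 of all genes. With slide row as a block, 5 and 4 members were called as well. The change of Cd24a minus that of Cd44 ran from 2.58, with probes averaged, to 3.25, and that of Kit minus Kitl from -0.76 to -0.55. Signal over background limits the dim probes of Cd44 and Prom1.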
